A study of Mus musculus with 12 samples.

Results

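The mitochondrially encoded transcripts were taken as the 37 rows of the count table whose gene symbol starts with mt-, out of 43278 rows in all. They comprised 13 protein-coding genes, 2 rRNA genes and 22 tRNA genes, and the rule used only the symbols and no measured value. Poly(A)-selected libraries had been sequenced from peritoneal macrophages (PMφs) of wild-type C57BL/6J mice aged 8 to 12 weeks. The macrophages were elicited with 4% thioglycolate, an irritant that recruits inflammatory cells to the peritoneum, taken after 4 days and kept in adherent culture for 18 h. Cells of male and female littermates had been pooled for an experiment before they were split among the treatments. The 4 groups held 3 libraries each. Control cells received neither agent. The oxLDL group was loaded for 24 h with human medium-oxidized low-density lipoprotein at 100 μg/ml. The LPS group received ultrapure LPS, the bacterial ligand of Toll-like receptor 4, at 10 ng/ml. The oxLDL+LPS group received both, at those doses. The time with LPS was not given for these libraries in the sources used here.

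The mitochondrial genome is a small double-stranded circle that codes for core subunits of respiratory complexes I, III, IV and V, and for the rRNAs and tRNAs that translate them inside the organelle. Each strand is copied as a long precursor, and tRNAs cut out of that precursor release the mRNAs and rRNAs between them. Most of the mature mRNAs then receive a short poly(A) tail, the rRNAs receive a very short one, and tRNAs receive a CCA end. Macrophages given LPS are known to shift their energy supply from respiration towards glycolysis.

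The values are read counts that were divided by a factor for each library and rounded, called normalised reads here, and they correspond to 16725623 to 26178308 reads per library. The sum of a library ran from 17152972 to 17709731 normalised reads without LPS and from 22071853 to 26384551 with LPS. Scaling therefore bears on every comparison with LPS. The median log2 fold change of all genes between LPS and control was -0.00097 on the deposited scale and -0.48 after each library was rescaled to the same sum. On the deposited scale 31.4% of genes were called higher and 30.3% lower, and after rescaling 16.8% were called higher and 55.8% lower. Macrophage markers summed to 234367 to 327358 normalised reads in every library, fibroblast markers to 4374 to 27128, and T cell markers to at most 5. Il1b, a cytokine gene induced by LPS, was at 7 to 20 without LPS and at 7630 to 152939 with it.

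The replicate number did not mark the same pool throughout. Xist, expressed in female cells, was at 1 and 2 normalised reads in the control and oxLDL libraries of number 1. In the LPS and oxLDL+LPS libraries of number 1 it was at 6331 and 3812. Number 1 thus had no trace of female cells above 2 normalised reads without LPS and a clear one with LPS, which differs from a single pool divided among all 4 treatments. In number 2 Xist was at 5933 to 7751 and the Y-linked genes Ddx3y, Eif2s3y and Kdm5d summed to 0 to 2. In number 1 the Y-linked genes summed to 2720 and 2625 in the control and oxLDL libraries. In its LPS and oxLDL+LPS libraries they summed to 916 and 901. Number 3 held both marks in all 4 groups. Clear marks of both sexes were thus present only in number 3 and in number 1 with LPS, which differs from the pooling given in the methods. Results that compare LPS with no LPS are therefore also given without the libraries of number 1 for the shares, the rRNA rows and the abundant mRNA rows.

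Sequences of some rows named in the results below are given here. They come from the GENCODE M21 transcripts on GRCm38. The first pair is the start of mt-Nd3, a complex I subunit gene (chrM:9459-9558, plus strand), and of Gm28438, an unprocessed pseudogene of chromosome 1 (chr1:24613020-24613119, minus strand). Capitals mark the longest run of bases that is identical in both, 97 bases of this window.
mt-Nd3: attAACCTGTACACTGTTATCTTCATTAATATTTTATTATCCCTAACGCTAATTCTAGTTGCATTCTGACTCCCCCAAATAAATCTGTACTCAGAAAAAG
Gm28438: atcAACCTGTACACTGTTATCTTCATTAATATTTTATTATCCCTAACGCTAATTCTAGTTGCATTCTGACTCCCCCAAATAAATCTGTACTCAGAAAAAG
The next 3 are the last 60 bases of both rRNA genes, whose rows passed the test with LPS, and of mt-Co1, the most abundant row. They lie at chrM:965-1024, chrM:2616-2675 and chrM:6813-6872, all on the plus strand, and capitals mark every run of A of the longest length in its window. These runs entered no test.
mt-Rnr1 3′ end: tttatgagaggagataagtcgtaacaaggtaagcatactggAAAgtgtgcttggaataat
mt-Rnr2 3′ end: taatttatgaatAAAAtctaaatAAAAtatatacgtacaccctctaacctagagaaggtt
mt-Co1 3′ end: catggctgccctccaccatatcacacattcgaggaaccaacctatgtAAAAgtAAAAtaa
The last 3 are the most abundant tRNA rows, for proline (chrM:15356-15422), asparagine (chrM:5089-5159) and cysteine (chrM:5192-5257), all on the minus strand and given without capitals.
mt-Tp: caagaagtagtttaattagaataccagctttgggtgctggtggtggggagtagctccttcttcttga
mt-Tn: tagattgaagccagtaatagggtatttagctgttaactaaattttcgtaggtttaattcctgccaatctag
mt-Tc: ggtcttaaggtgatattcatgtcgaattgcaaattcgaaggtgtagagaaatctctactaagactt

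Of the 13 protein-coding rows, 7 were abundant and 6 were almost empty in every library. The abundant rows were mt-Co1, mt-Nd1, mt-Nd2, mt-Nd4, mt-Nd5, mt-Nd6 and mt-Cytb, and their lowest value in any library was 5339 normalised reads. The other 6 were mt-Co2 and mt-Co3 of complex IV, mt-Atp6 and mt-Atp8 of complex V, and mt-Nd3 and mt-Nd4l of complex I, and their highest value in any library was 62. mt-Co1 codes for the catalytic subunit of complex IV and ran from 108064 to 174008, whereas mt-Co2 and mt-Co3, which code for the other core subunits of the same complex, ran from 18 to 48 and from 13 to 61. No protein-coding row had a value between 62 and 5339 in any of the 12 libraries.

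The 6 near-empty protein-coding rows were next to each other on the genome. They all lay inside chrM:6394-11042 (GRCm38), a stretch of 4649 bases that 7 annotated pseudogenes at chr1:24611535-24616197 match in parts on the minus strand of chromosome 1. Gm28437 was identical to mt-Co3 over 783 bases, Gm28661 to mt-Co2 over 681, Gm10925 to mt-Atp6 over 678, Gm28438 to mt-Nd3 over 342 and Gm10222 to mt-Nd4l over 294. Gm28439 matched the first 876 bases of mt-Nd4, and Gm29216 matched 479 bases of mt-Co1, the last of them at the end of that gene. The share of 150-base windows also found in a transcript outside the mitochondrial genome was 99.8% for mt-Co3, 99.4% for mt-Co2 and mt-Atp6, 98.0% for mt-Nd4l and 97.0% for mt-Nd3. It was 59.2% for mt-Nd4, 23.6% for mt-Co1 and 0 for mt-Nd1, mt-Nd2, mt-Nd5, mt-Nd6 and mt-Cytb. mt-Atp8, at 1 to 9 normalised reads, shared no such window. No annotated transcript covers the bases of chromosome 1 between Gm10925 and Gm28661, and those bases were not read here.

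**Figure D1:**
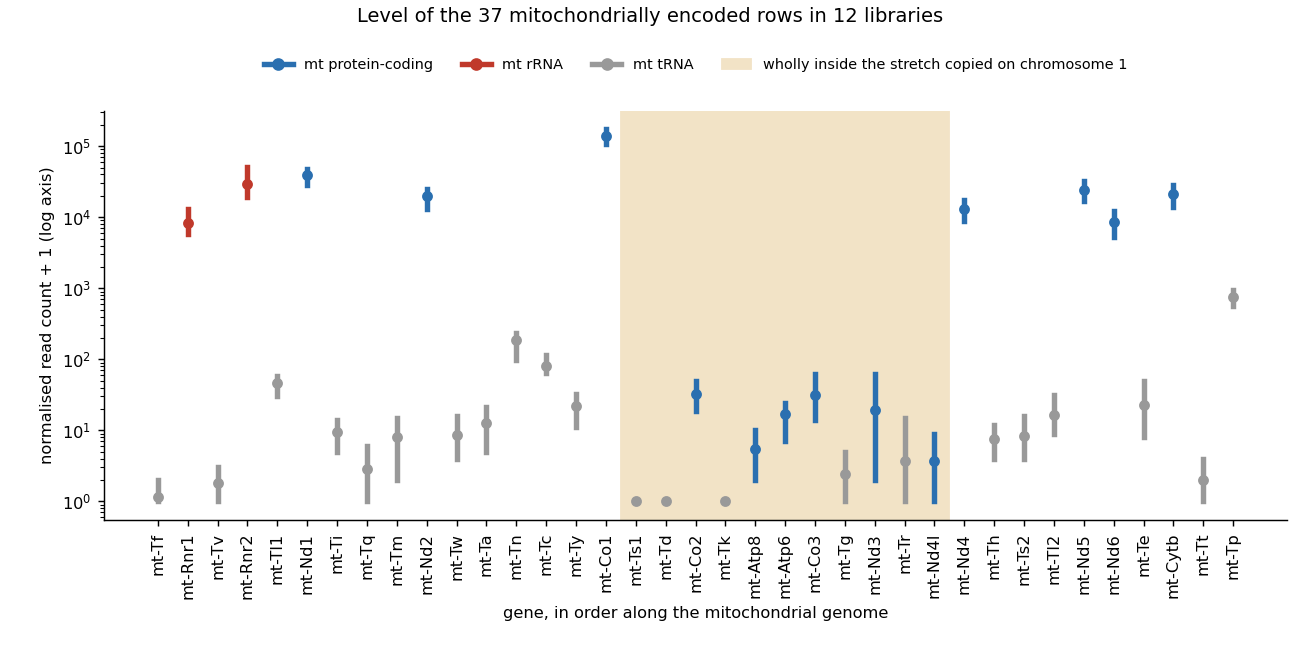
Level of each of the 37 rows (y axis, normalised reads plus 1, log axis) in gene order along the mitochondrial genome (x axis), with the bar from the lowest to the highest of 12 libraries and the point at their mean. The shaded genes lie wholly inside the stretch spanned by the matches to annotated pseudogenes of chromosome 1, where bases between the pseudogenes were not read. The 6 protein-coding rows of that stretch stay at or below 62, while the 7 outside or partly outside it stay at or above 5339.

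The 7 pseudogene rows were low too, at 1 to 136 normalised reads. Neither the 6 genes nor their annotated copies thus held reads at the level of their neighbours mt-Co1 and mt-Nd4. How reads that fit 2 places equally well were counted is not given in the sources used here, and the part of that choice in these levels was not tested. The 5 tRNA genes inside the same stretch were at 0 to 14, with mt-Ts1, mt-Td and mt-Tk at 0 in every library, while the 17 tRNA genes outside it reached 945. A value of 0 allows up to 3 reads, or 2.29 to 4.24 normalised reads depending on the library, and covers counting error only. The comparisons below therefore rest on the 7 abundant mRNA rows and the 2 rRNA rows.

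mt-Nd3 and its copy divided their reads by pool. In numbers 1, 2 and 3, mt-Nd3 was at 2, 3 and 29 normalised reads in control libraries and at 2, 1 and 29 with oxLDL. With LPS it was at 62, 6 and 16, and with oxLDL+LPS at 43, 1 and 23. Gm28438 ran the other way, with 101, 110 and 43 in control libraries and 100, 118 and 36 with oxLDL. In LPS libraries Gm28438 was at 2, 136 and 32, and in oxLDL+LPS libraries at 1, 109 and 35. Number 2 had nearly all these reads on Gm28438 in every group, number 3 had them on both rows in every group, and number 1 had them on Gm28438 without LPS and on mt-Nd3 with LPS. The sum of both rows was between 44 and 142 in all 12 libraries. Number 1 changed sides at the same place as Xist did, and the cause was not tested. The fold change of mt-Nd3 between LPS and control, 1.46 on the log2 scale (limma, adjusted p = 0.280), was 4.39 in number 1, 0.81 in number 2 and -0.82 in number 3.

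The 37 rows together took 1.05 to 1.71% of a library. Nearly all of this came from the 7 abundant mRNA rows and the 2 rRNA rows. The near-empty rows added little, so the share need not give all mitochondrial RNA of a library. The share of the 37 rows was 1.60, 1.71 and 1.64% in control libraries of numbers 1, 2 and 3, and 1.57, 1.59 and 1.71% with oxLDL. With LPS it was 1.66, 1.52 and 1.21%, and with oxLDL+LPS 1.05, 1.47 and 1.27%. The oxLDL libraries overlapped the controls, with 2 of them just below the lowest control, whereas the libraries with LPS were more spread and all 3 of the oxLDL+LPS group were below every library without LPS. Counting error was small beside these differences, since the 95% Wilson interval of a share was at most 0.00595 percentage points to either side. As group means, the share was 1.65% ± 0.06 (SD, n = 3) in control, 1.62% ± 0.07 with oxLDL, 1.46% ± 0.23 with LPS and 1.27% ± 0.21 with oxLDL+LPS. The log2 ratio of means was -0.02 for oxLDL against control, -0.17 for LPS against control, -0.21 for oxLDL+LPS against LPS and -0.36 for oxLDL+LPS against oxLDL. Only the last had the same sign in all 3 replicate numbers. The ratio of oxLDL+LPS to LPS rested on number 1, where it was -0.66, against -0.04 and 0.07 in numbers 2 and 3, and it was -0.09 without the oxLDL+LPS library of that number and 0.0058 without both libraries of it. Without both libraries of number 1 the ratio was -0.29 for LPS against control and -0.27 for oxLDL+LPS against oxLDL.

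**Figure D2:**
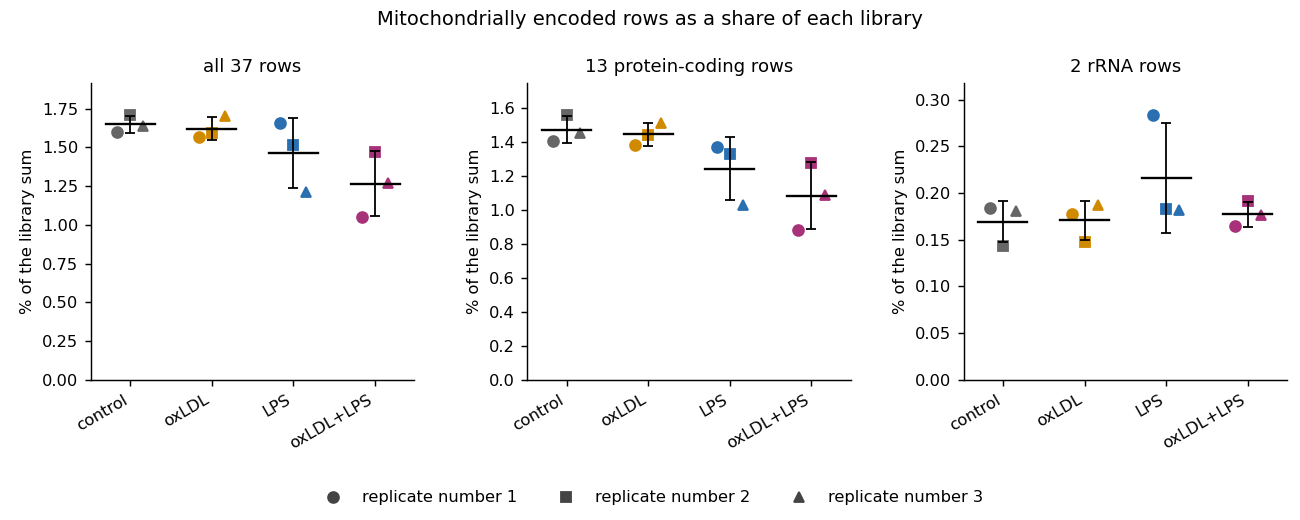
Share of the library sum (y axis, %) taken by all 37 rows, the 13 protein-coding rows and the 2 rRNA rows in each group (x axis), with a symbol for each replicate number, the group mean as a line and the SD as a bar. Shares of all rows are 1.57 to 1.71% without LPS and 1.05 to 1.66% with LPS, and in the rRNA panel the LPS mean, 0.216%, is raised by the library of number 1 at 0.284%, with the other 2 at 0.182 and 0.183%.

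By class, protein-coding rows made up 1.47% ± 0.08 of control libraries, 1.44% ± 0.07 of oxLDL libraries, 1.24% ± 0.19 of LPS libraries and 1.08% ± 0.20 of oxLDL+LPS libraries. rRNA rows made up 0.169% ± 0.022, 0.171% ± 0.021, 0.216% ± 0.059 and 0.177% ± 0.013 (SD, n = 3 each, in the same order). The LPS mean of the rRNA rows rested on the library of number 1, at 0.284%, since numbers 2 and 3 were at 0.183 and 0.182% and the controls of numbers 1 and 3 at 0.184 and 0.181%. The log2 ratio of LPS to control was 0.35 for the rRNA share with that library and 0.11 without it, and 0.17 without both libraries of number 1. For the protein-coding share it was -0.25, and -0.35 without both libraries of number 1. tRNA rows never exceeded 0.00754% of a library. In bulk RNA a lower share can mean less mitochondrial RNA in each cell or more of other RNA. It can also mean fewer cells of a type that is rich in mitochondrial RNA. On the deposited scale the 37 rows summed to 287050 ± 11854 normalised reads in control and 354279 ± 29654 with LPS. They summed to 282864 ± 13049 with oxLDL and 290223 ± 55069 with oxLDL+LPS (SD, n = 3). These readings of the share cannot be told apart here. Eosinophil and neutrophil markers moved with LPS. Summed markers of B cells, T cells, mast cells, mesothelial cells and fibroblasts overlapped between control and LPS libraries. Eosinophil markers summed to 315 to 383 normalised reads in control and 99 to 124 with LPS, and to 180 to 303 with oxLDL and 55 to 104 with oxLDL+LPS. Of the 3 eosinophil markers 1 reached 10 reads in any library and 1 was at 0 in all. Neutrophil markers, of which 1 of 5 reached 10 reads and 1 was at 0, summed to 38 in each control library and 74 to 178 with LPS, and to 31 to 49 with oxLDL and 118 to 249 with oxLDL+LPS. The part of these cells in the shares was not tested.

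mt-Rnr1, the 12S rRNA of the small mitochondrial ribosomal subunit, was at 6875, 5869 and 7193 normalised reads in control libraries of numbers 1, 2 and 3. With LPS it was at 13242, 10631 and 9959. All LPS libraries were above all control libraries. The log2 fold change was 0.76 ± 0.14 (SE, n = 3 against 3), and mt-Rnr1 was called higher by limma (adjusted p = 0.00247). Calls use a Benjamini-Hochberg adjusted p under 0.1 over all 13023 genes tested, and 61.7% of those genes were called, 31.4% of them all as higher.

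mt-Rnr2, the 16S rRNA of the large subunit, was at 24606, 19061 and 24898 in control libraries and at 50856, 33570 and 38057 with LPS. Its LPS libraries were also all above its control libraries, and the LPS library of number 1 stood furthest out. It was called higher with a log2 fold change of 0.83 ± 0.19 (SE, limma, adjusted p = 0.00794). Both rRNA rows thus rose with LPS on the deposited scale, but after rescaling to equal library sums the changes were 0.27 for mt-Rnr1 (adjusted p = 0.186) and 0.34 for mt-Rnr2 (adjusted p = 0.190) and neither was called. Without both libraries of number 1 the changes on the deposited scale were 0.66 and 0.71, and both rows were still called. Of 12 genes listed as making RNA without a poly(A) tail, 3 reached 10 normalised reads in any library. The histone genes Hist1h1c and Hist1h2bc passed the filter, and both were lower with LPS, by -2.17 and -0.75 (limma, adjusted p = 0.00123 and 0.000425). The summed level of the 12 genes was 1873 to 2853 in control libraries and 601 to 941 with LPS. Most of it was Hist1h1c, at 2236, 1186 and 1457 in control libraries and 555, 224 and 342 with LPS. Whether these RNAs lacked a tail in these cells, and their part in the rRNA result, was not tested.

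In oxLDL-loaded cells LPS went with higher rRNA rows on the deposited scale but not after rescaling. mt-Rnr1 was at 7229, 5811 and 7203 with oxLDL and at 7502, 9730 and 8033 with oxLDL+LPS. mt-Rnr2 was at 23760, 19904 and 25352 with oxLDL and at 28809, 34653 and 33146 with oxLDL+LPS. The groups did not overlap for either row, but the gap was narrow for mt-Rnr1, from 7229 to 7502. The log2 fold changes were 0.32 ± 0.14 for mt-Rnr1 (limma, adjusted p = 0.0928) and 0.49 ± 0.14 for mt-Rnr2 (adjusted p = 0.0236), in a comparison where 54.5% of 12900 genes were called (28.2% higher and 26.3% lower) and 29.6% were higher without overlap. After rescaling to equal sums, where 15.8% of genes were called higher and 51.7% lower, mt-Rnr1 turned to -0.07 and mt-Rnr2 was at 0.10, with neither called. On the deposited scale mt-Rnr1 was no longer called without any single library of the oxLDL group, without oxLDL+LPS replicate 2 or 3, or without both libraries of number 1, where its adjusted p was 0.102.

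The abundant protein-coding rows of complex I did not pass the test with LPS. mt-Nd1 was at 33908, 39845 and 40512 in control libraries of numbers 1, 2 and 3, at 36000, 36935 and 43524 with oxLDL, at 41272, 47281 and 40735 with LPS, and at 28456, 44172 and 40601 with oxLDL+LPS. LPS libraries were all above the controls, though only just, and the oxLDL+LPS library of number 1 was the lowest of all 12. The LPS change was 0.18 with a 95% interval from -0.15 to 0.51 (limma, adjusted p = 0.324), and 0.13 without both libraries of number 1.

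mt-Nd2 was at 16543, 22911 and 21302 in control libraries and at 19944, 24811 and 19095 with LPS. mt-Nd4 was at 11133, 15639 and 11170 in control libraries and at 13892, 17553 and 11312 with LPS. mt-Nd5 was at 21066, 29253 and 22571 in control libraries and at 28236, 32553 and 22477 with LPS. The groups overlapped for all 3 of these membrane-arm subunit genes, and number 2 was the highest in both groups for each of them. The LPS changes were 0.08 for mt-Nd2, 0.17 for mt-Nd4 and 0.19 for mt-Nd5, with adjusted p of 0.731, 0.509 and 0.423, and -0.02, 0.09 and 0.07 without both libraries of number 1. With oxLDL+LPS the 3 rows were at 13205 to 23532, 8946 to 16414 and 16668 to 26946, and the library of number 1 was the lowest each time.

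mt-Nd6 is the sole mRNA gene on the minus strand and so comes from the other precursor. Per the methods the libraries were made with a directional kit, which keeps the strand, but whether counting used it is not given there. In these counts, reads of plus-strand RNA across from mt-Nd6 thus cannot be told apart from its own. mt-Nd6 was at 8281, 9869 and 6474 in control libraries and at 8558, 10117 and 6601 with oxLDL. With LPS it was at 10799, 12057 and 6185, and with oxLDL+LPS at 5339, 11370 and 6201. Numbers 1 and 2 were higher with LPS than in control and number 3 was slightly lower, so the groups overlapped and the change was 0.20 with an interval from -0.41 to 0.82 (limma, adjusted p = 0.552). Without LPS replicate 3 the change was 0.50 and mt-Nd6 was called (limma, adjusted p = 0.0686), and without both libraries of number 1 it was 0.11. The ratio of mt-Nd6 to mt-Cytb, which lies near it on the plus strand, was 0.369 ± 0.047 in control, 0.377 ± 0.053 with oxLDL, 0.427 ± 0.082 with LPS and 0.388 ± 0.029 with oxLDL+LPS (SD, n = 3). The groups overlapped, but within each number the ratio was higher with LPS than in control, at 0.510 against 0.411, 0.425 against 0.377 and 0.347 against 0.318 in numbers 1, 2 and 3. No test was made for this ratio.

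mt-Cytb codes for the mitochondrially encoded subunit of complex III. It was at 20164, 26152 and 20352 in control libraries, at 21074, 24709 and 20919 with oxLDL, at 21163, 28361 and 17828 with LPS and at 14106, 27040 and 17036 with oxLDL+LPS. Number 2 was the highest in all 4 groups, and the LPS change was -0.0014 with an interval from -0.46 to 0.45 (limma, adjusted p = 0.995), and -0.04 without both libraries of number 1.

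mt-Co1, the catalytic subunit gene of complex IV, was at 130434, 126985 and 134422 in control libraries of numbers 1, 2 and 3, and at 126051, 119581 and 135481 with oxLDL. It was at 174008, 159310 and 153285 with LPS and at 108064, 146546 and 137836 with oxLDL+LPS. All LPS libraries were above all libraries of the other groups. The LPS change against control was 0.31 with an interval from -0.13 to 0.75 (limma, adjusted p = 0.203). Without a trend in the variance estimate the same change had an adjusted p of 0.0389, and after rescaling to equal sums it turned to -0.17, so its direction depended on the scale. Without both libraries of number 1 it was 0.26 on the deposited scale.

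As a group, 0 of the 7 abundant protein-coding rows were called with LPS by limma and 0 had an unadjusted p under 0.05, where 59.5% of all genes did. Of these rows, 2 had LPS libraries all above the controls, against 32.1% of all genes tested. Their changes ran from -0.0014 to 0.31 on the deposited scale and from -0.49 to -0.17 after rescaling to equal sums, where 3 were called lower, mt-Nd1, mt-Nd2 and mt-Cytb (adjusted p = 0.0832, 0.0662 and 0.0784). On that scale 55.8% of all genes were called lower and the median of all genes was -0.48. The only protein-coding row called on the deposited scale was mt-Co2, a near-empty row, at 0.71 (adjusted p = 0.0757). Its values were 26.0 ± 8.0 in control and 42.3 ± 6.7 with LPS, and the call was lost without control replicate 1 or 2 or LPS replicate 1 or 3. In the comparison of oxLDL+LPS with oxLDL, the 7 abundant rows changed by -0.25 to 0.03 with 0 called and 0 at an unadjusted p under 0.05, where 53.7% of all genes were. Without oxLDL+LPS replicate 2, mt-Cytb, mt-Nd4 and mt-Nd6 were called lower, and without both libraries of number 1 the 7 rows changed by -0.08 to 0.16. After rescaling they changed by -0.64 to -0.36 and 5 were called lower, where 51.7% of all genes were and the median of all genes was -0.41.

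**Figure D3:**
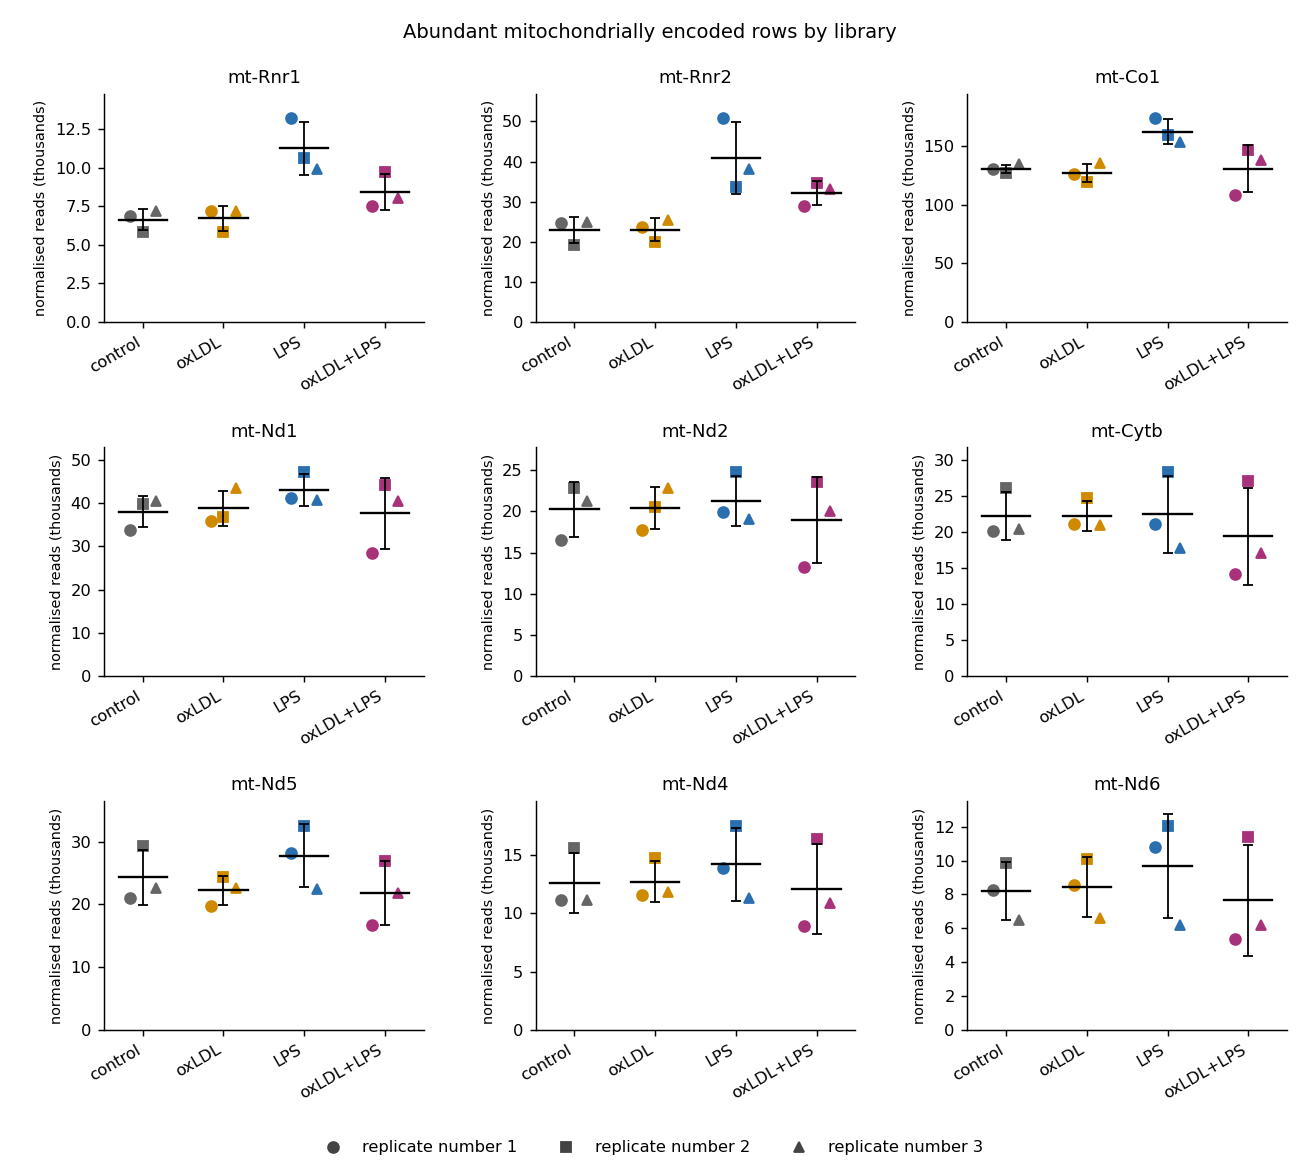
Normalised reads divided by 1000 (y axis, from 0) of the 2 rRNA rows and the 7 abundant protein-coding rows in each group (x axis), with a symbol for each replicate number, the mean as a line and the SD as a bar. The rRNA panels separate LPS from control, while in all 7 protein-coding panels the oxLDL+LPS library of number 1 is the lowest of the 12.

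The ratio of rRNA to mRNA within a library does not depend on the scaling of the libraries. The summed rRNA rows over the summed protein-coding rows gave 0.130, 0.0921 and 0.125 in control libraries of numbers 1, 2 and 3, and 0.129, 0.102 and 0.123 with oxLDL. With LPS the ratio was 0.207, 0.137 and 0.177, and with oxLDL+LPS 0.186, 0.150 and 0.162. Every library with LPS was above every library without it, and number 2 was the lowest in each of the 4 groups. The log2 ratio of group means was 0.59 for LPS against control and 0.49 for oxLDL+LPS against oxLDL, and 0.54 and 0.47 without both libraries of number 1. No test was made for this sum. Taken pair by pair, each rRNA row over each of the 7 abundant mRNA rows gave 14 ratios, and all 14 were higher with LPS than in control in each replicate number, by 0.45 to 0.83 on the log2 scale, with groups that did not overlap in 6 of them. All 14 were also higher in each number with oxLDL+LPS than with oxLDL, by 0.29 to 0.74, with groups that did not overlap in 7. For oxLDL against control the 14 ratios differed by -0.02 to 0.14, and for oxLDL+LPS against LPS by -0.22 to 0.04. These pairs share 9 rows and 12 libraries and so are not independent of each other.

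**Figure D4:**
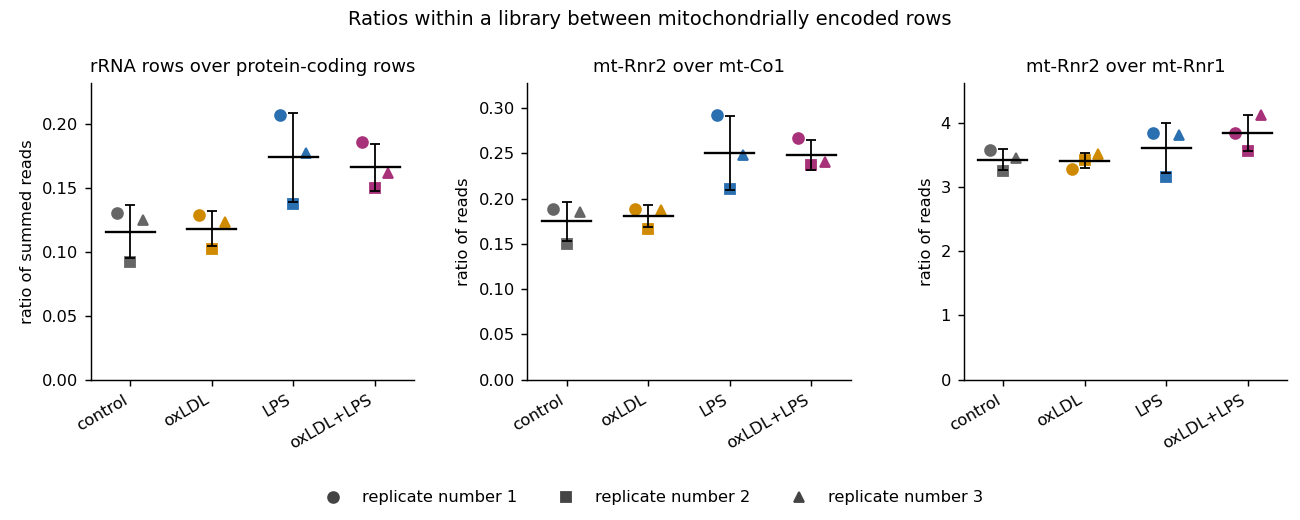
Ratios of reads between mitochondrial rows within a library (y axes, from 0), by group (x axis) and replicate number, with the mean as a line and the SD as a bar. rRNA over protein-coding rows is 0.0921 to 0.130 without LPS and 0.137 to 0.207 with LPS, and mt-Rnr2 over mt-Co1 separates in the same way.

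mt-Rnr2 over mt-Rnr1 was 3.43 ± 0.17 in control, 3.41 ± 0.12 with oxLDL, 3.61 ± 0.39 with LPS and 3.84 ± 0.28 with oxLDL+LPS (SD, n = 3). LPS and control overlapped, and their difference was smaller than the SD of the LPS libraries. All oxLDL+LPS libraries, at 3.56 to 4.13, were above all oxLDL libraries, at 3.29 to 3.52. No test was made for this ratio. mt-Rnr2 over mt-Co1 was 0.175 ± 0.021 in control, 0.181 ± 0.012 with oxLDL, 0.250 ± 0.041 with LPS and 0.248 ± 0.016 with oxLDL+LPS.

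Levels per length put the abundant rows in the same order in all 4 groups apart from the rRNA rows and the rows they passed. In control libraries mt-Co1 had 84540 ± 2409 normalised reads per kilobase, mt-Nd1 39800 ± 3799, mt-Nd2 19511 ± 3190 and mt-Cytb 19425 ± 2976 (SD, n = 3). mt-Nd6 followed with 15815 ± 3273, mt-Rnr2 with 14447 ± 2079, mt-Nd5 with 13321 ± 2389, mt-Nd4 with 9178 ± 1880 and mt-Rnr1 with 6959 ± 724. The ranges of neighbours overlapped from mt-Nd2 to mt-Nd5, whereas mt-Co1 stood clear of mt-Nd1 and mt-Nd1 of mt-Nd2. mt-Nd4 stood clear of the rows on either side in control and oxLDL libraries. These levels divide by the whole length of the gene. Of the 150-base windows of mt-Nd4 and mt-Co1, 59.2% and 23.6% were also found in a transcript outside the mitochondrial genome. The part of this sharing in their levels per length was not tested. The oxLDL group had the same order. With LPS mt-Rnr2 came right after mt-Nd1, with 25808 ± 5670 per kilobase, and it did so with oxLDL+LPS too, with 20356 ± 1918, but its range overlapped that of mt-Nd2 both times. mt-Rnr1 came before mt-Nd4 in both groups with LPS, but their ranges overlapped.

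tRNAs are short and carry no poly(A) tail, and their rows were low. In each library 3 rows, mt-Tp, mt-Tn and mt-Tc, held 82.1 to 90.4% of all tRNA reads (95% Wilson interval at most 2.29 percentage points to either side). Over 12 libraries mt-Tp averaged 751 normalised reads, with a range of 557 to 945, mt-Tn 185 with a range of 97 to 234 and mt-Tc 80.5 with a range of 63 to 113. All 3 lie on the minus strand, as do 8 of the 22 tRNA genes. The median of the mean level was 21.3 for the 8 on the minus strand and 4.71 for the 14 on the plus strand, and none of the 14 averaged above 44.9, the level of mt-Tl1 (leucine). Minus-strand tRNAs lie across from plus-strand precursor RNA. The library kit was directional, but whether counting used the strand is not given, so in these counts reads of the opposite strand cannot be told apart.

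mt-Tp was at 557, 828 and 762 in control libraries of numbers 1, 2 and 3 and at 823, 945 and 790 with LPS, so that the groups overlapped although each number was higher with LPS. Its change was 0.27 (limma, adjusted p = 0.194). A fit that blocked on replicate number called it (limma, adjusted p = 0.0849) along with 68.7% of all genes. In that block number 1 did not hold the same pool across LPS states. After rescaling the change of mt-Tp turned to -0.21. mt-Tc, at 73.0 ± 8.7 in control and 95.7 ± 15.8 with LPS, had LPS libraries all above the controls but was not called (0.38, adjusted p = 0.136), except without LPS replicate 2 (adjusted p = 0.0943), with no variance trend or with all 12 libraries in the fit. mt-Ty (tyrosine) was at 20, 26 and 29 in control libraries and at 14, 20 and 11 with LPS. It was called lower although the groups touched (-0.72, adjusted p = 0.0971), and without any single library other than LPS replicate 2 the call was lost. Of 10 tRNA rows that passed the filter in this comparison, mt-Ty was the 1 called, where 61.7% of all genes were, and after rescaling it was at -1.18 (adjusted p = 0.0167), with mt-Ti (isoleucine, -1.12) and mt-Tl1 (-0.54) also called lower. Other tRNA rows were too low to compare, with 8 of the 22 at or below 9 normalised reads in every library.

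**Figure D5:**
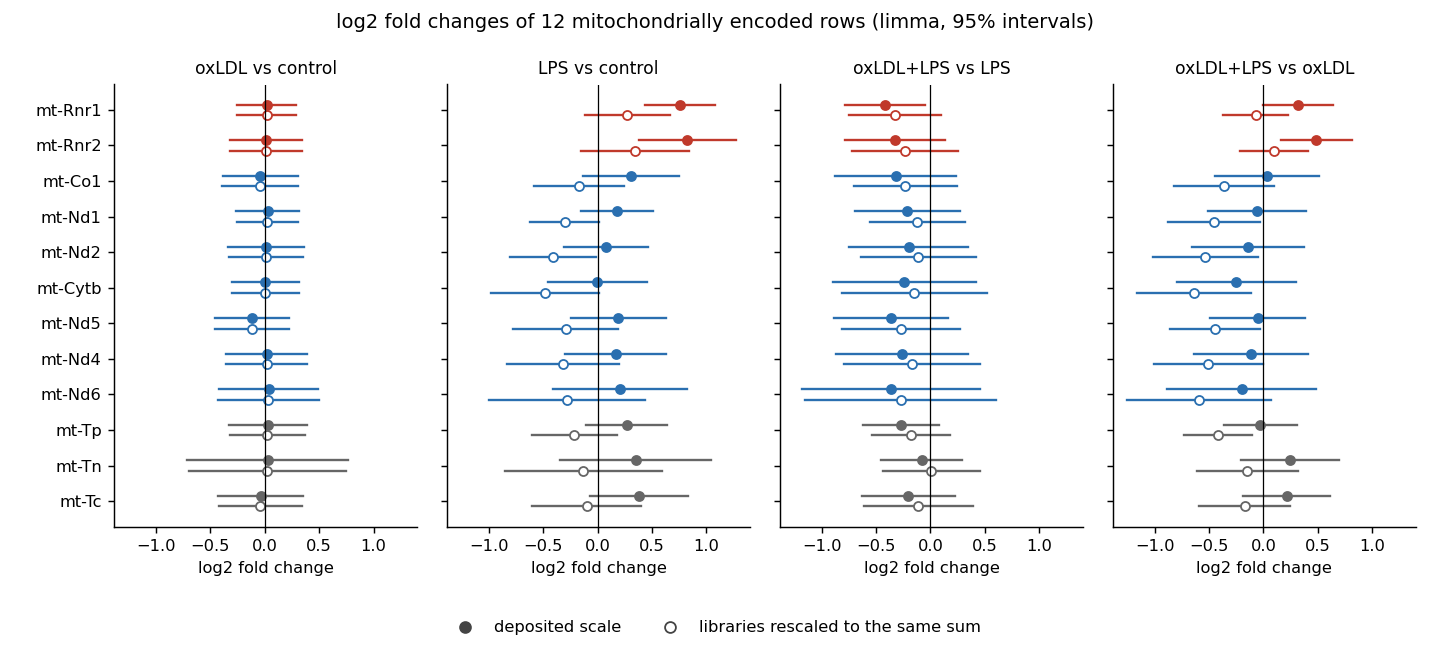
log2 fold changes (x axis) with 95% intervals from limma for the 9 abundant rows and the 3 highest tRNA rows (y axis) in each pairwise comparison, on the deposited scale (filled) and after rescaling each library to the same sum (open). With LPS the rRNA rows are at 0.76 and 0.83 on the deposited scale, and the 7 mRNA rows run from -0.0014 to 0.31 on that scale but from -0.49 to -0.17 after rescaling.

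oxLDL without LPS left the mitochondrial rows close to control. By limma, 0 of 12751 genes were called in this comparison (0%), and 0 of the 21 mitochondrial rows that passed the filter had an unadjusted p under 0.05, where 2.99% of all genes did. mt-Ti was the 1 row whose groups did not overlap, at 11 to 13 normalised reads in control and 7 to 10 with oxLDL, where 7.7% of all genes did not. The block called 4.71% of all genes and 0 of these rows. The 7 abundant mRNA rows changed by -0.12 to 0.04, with intervals that together ran from -0.46 to 0.49, and both rRNA rows by 0.01 to 0.02, with intervals from -0.32 to 0.34. With the block the intervals of the mRNA rows narrowed to -0.27 to 0.19 and those of the rRNA rows to -0.11 to 0.14. mt-Nd5 had the largest change among the abundant rows, with 19812, 24368 and 22576 with oxLDL against 21066, 29253 and 22571 in control. It was lower in numbers 1 and 2 and level in number 3, and its adjusted p with the block was 0.426.

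In cells given LPS, oxLDL went with lower values of nearly all the rows, but 0 were called and the abundant rows fell most in number 1. Between oxLDL+LPS and LPS, 0 of 12786 genes were called by limma (0%), and 1 mitochondrial row of 21, mt-Rnr1, had an unadjusted p under 0.05, where 6.96% of all genes did. All 11 protein-coding rows that passed the filter had negative changes, and the 7 abundant ones ran from -0.37 to -0.20 (median of all genes tested -0.01). After rescaling to equal sums they ran from -0.28 to -0.11 against a median of 0.08 for all genes. mt-Rnr1 changed by -0.42 and mt-Rnr2 by -0.32. mt-Rnr1 was lower in all 3 numbers, by -0.82, -0.13 and -0.31, and the groups did not overlap, which was so for 6.39% of all genes in that direction. With the block, where 13.2% of all genes were called, mt-Rnr1 was called lower (adjusted p = 0.0796), as was mt-Tp (-0.27, adjusted p = 0.0989), but 0 of the mRNA rows were. Number 1 carried most of the size. Without both libraries of number 1 the change was -0.22 for mt-Rnr1, -0.08 for mt-Rnr2 and -0.14 for mt-Co1. The log2 ratio of the summed protein-coding share was then 0.005, against -0.20 with all libraries. In number 3 mt-Nd2 was at 20021 with oxLDL+LPS against 19095 with LPS, and mt-Nd6 at 6201 against 6185. Both were lower in number 2, and the other abundant mRNA rows were lower in both numbers. In number 1 fibroblast markers were also lower with oxLDL+LPS than with LPS, at 15435 against 27128 normalised reads, whereas in numbers 2 and 3 they were at 14408 against 13151 and at 4374 against 5083, and their part in these values was not tested.

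The interaction, that is the oxLDL effect with LPS less the oxLDL effect without LPS, was negative for all 11 protein-coding rows and both rRNA rows. It was -0.44 ± 0.20 for mt-Rnr1, -0.34 ± 0.24 for mt-Rnr2 and -0.28 ± 0.24 for mt-Co1 (SE, 12 libraries). The 7 abundant mRNA rows ran from -0.40 to -0.22, where the median of all genes tested was -0.01. limma called 0 of 13482 genes (0%), and of 24 mitochondrial rows 1, mt-Tw at 3 to 15 normalised reads, had an unadjusted p under 0.05, where 3.1% of all genes did. With the block 0 genes were called as well (0%), and mt-Rnr1, mt-Tp and mt-Tw had an unadjusted p under 0.05, where 7.17% of all genes did. Within number 1 the interaction of mt-Rnr1 was -0.89, against -0.11 and -0.31 in numbers 2 and 3. For mt-Co1 most of the size came from number 1 too. There it was at 108064 with oxLDL+LPS against 174008 with LPS, and at 126051 with oxLDL against 130434 in control. In number 2 these values were 146546 against 159310 and 119581 against 126985. In number 3 they were 137836 against 153285 and 135481 against 134422.

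Nuclear genes that transcribe, process and maintain mitochondrial RNA, or regulate its genes, were called in both directions with LPS. Of 43 such genes tested, 15 were called higher and 11 lower, shares close to those of all genes (31.4% and 30.3%). After rescaling 4 were called higher and 25 lower, where 16.8% and 55.8% of all genes were. Pnpt1, the mitochondrial polynucleotide phosphorylase, was at 571, 502 and 643 in control libraries and 2829, 2594 and 3409 with LPS, a change of 2.36 (adjusted p = 5.93e-06). Slirp, part of the complex that stabilizes and polyadenylates mitochondrial mRNAs, changed by 1.31, and Gabpb1, a subunit of nuclear respiratory factor 2, by 1.46. These 3 rose on either scale, with changes of 1.88, 0.83 and 0.98 after rescaling. Ppargc1a, a coactivator of mitochondrial biogenesis, fell, with 45, 85 and 67 normalised reads in control libraries and 4, 6 and 4 with LPS (-3.53), while Peo1, the mitochondrial helicase Twinkle, changed by -1.20 and Hsd17b10, a subunit of mitochondrial RNase P, by -0.66. All 3 fell on either scale.

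By role, 3 of 9 transcription genes were called higher and 2 lower, and of 7 replication genes 1 was called higher and 3 lower. Of 11 genes that process the precursors 2 were called in each direction. Of 8 genes of RNA stability and polyadenylation 3 were called higher and 2 lower, and of 8 nuclear regulators 6 were called higher and 2 lower. These counts by role are on the deposited scale, where 31.4% of all genes were called higher and 30.3% lower. Whether the roles differed was not tested. In oxLDL-loaded cells LPS gave 13 called higher and 9 lower of 42, where 28.2% and 26.3% of all genes were, and 5 and 21 after rescaling, where 15.8% and 51.7% of all genes were, again with Pnpt1 (2.22), Slirp (1.20) and Gabpb1 (1.09) highest by the test and Ppargc1a (-3.71), Ppargc1b (-1.28) and Peo1 (-1.05) lowest. oxLDL alone gave 0 called by limma (0% of all genes), with 3 at an unadjusted p under 0.05 (2.99% of all genes). With the block limma called 1, Myc (0.43, adjusted p = 0.0867), and 4.71% of all genes. Between oxLDL+LPS and LPS 0 were called in either fit, where 0% of all genes were without the block and 13.2% with it. Without the block 1 had an unadjusted p under 0.05, where 6.96% of all genes did.

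The nuclear-encoded respiratory chain genes, partners of the mitochondrial mRNAs in the same complexes, had small changes with LPS, and their calls depended on the scale. Of 75 genes, 17 were called higher and 6 lower with LPS, with a median of 0.13, where 31.4% and 30.3% of all genes were. By complex, 5 of 9 genes of complex III and 5 of 11 of complex IV were called higher and 0 lower, while of 36 complex I genes 3 were called higher and 5 lower. After rescaling to equal sums the median was -0.36, and 0 were called higher and 50 lower, where 16.8% and 55.8% of all genes were and the median of all genes was -0.48. Uqcrb of complex III (0.41), Atp5b of complex V (0.49) and Cox6a1 of complex IV (0.35) were called higher on the deposited scale but were at -0.08, 0.00 and -0.13 after rescaling. Ndufa6, Ndufs7 and Ndufb10 of complex I were called lower on both scales, at -0.40, -0.39 and -0.37 on the deposited scale. With oxLDL+LPS against oxLDL, 15 were called higher and 4 lower, where 28.2% and 26.3% of all genes were. After rescaling 0 were called higher and 41 lower, where 15.8% and 51.7% of all genes were. Cyc1 (0.38), Ndufs4 (0.50) and Cox6b1 (0.28) were called higher on the deposited scale only, while Ndufb10, Ndufa6 and Ndufs7 were called lower on both. The median of this list with LPS, 0.13, lay beside 0.18 for the 7 abundant mitochondrial mRNAs and 0.79 for the 2 rRNAs on the same scale. Between oxLDL and control and between oxLDL+LPS and LPS 0 of the 75 were called and 0 had an unadjusted p under 0.05 by limma. Of all genes 0% were called in either comparison, and 2.99% and 6.96% had an unadjusted p under 0.05.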

How the data were processed

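RNA was sequenced from 12 PMφ cultures, 3 in each of 4 groups. Per the methods, adapters were trimmed by Trimmomatic 0.32, STAR 2.5.1b placed the reads on mm10, the UCSC name of GRCm38, and featureCounts counted those in exons. The signal deposited by the authors holds whole numbers with the spacing of read counts that were scaled by library and then rounded. The libraries were made with a directional kit, per the methods. The strand setting of the counting, the handling of reads that fit several places and the scaling step are not given in the sources used here. The spacing gave each library's scale and hence its depth, 16725623 to 26178308 reads. Every sample column was mapped (0 without a sample).

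Groups were compared by limma 3.58.1 in R 4.3.3 (lmFit, then eBayes with trend) on log2(value + 1), a scale that understates the fold changes of low rows. A gene entered a comparison if 3 or more of its libraries had a value of 10 or more, and p-values were adjusted over all such genes. A pairwise fit used 6 libraries and the interaction all 12. The p-values measure the spread between these libraries. Per the methods the libraries came from pools split among the treatments, which the sex-linked genes of number 1 do not show across LPS states. The fit was tested on simulated data. Shares, ratios and sums over several rows were given as values with no test.

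Alternatives were a block on replicate number, other filters, a pseudocount of 5, no variance trend, rescaled libraries, all 12 libraries in each fit and leaving out each library. Leaving out both libraries of number 1, counting rRNA calls and leaving libraries out of the class shares were added after seeing the data. Deviations from the group means correlated at 0.664 to 0.733 between same-numbered libraries of the same LPS state and at 0.305 to 0.665 across LPS states. All were above 0.1, so the numbers were taken to pair the libraries in the fits with the block, an alternative to main fits without it. Deviations within a group cancel out, so a match of the other numbers alone would give number 1 a positive correlation. This check thus cannot show whether number 1 pairs. Xist differs within number 1 between LPS states. In comparisons of LPS with no LPS, the block and the values by number thus do not pair libraries of the same pool in number 1.

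All mt- rows are named or counted. From the lists of 43 and 75 nuclear genes, the text names up to 3 that were higher and 3 that were lower, by smallest p, among those called with or without the block and of 1 sign in all 3 numbers. Members and lists were chosen with earlier results of these data known. Positions, lengths and sequences come from GENCODE M21 on GRCm38. There were 25 date-like symbols in the deposited file, which were assigned to no gene.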

Additional observations from a re-analysis of the deposited data

How the results depend on the processing

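Scaling decided most calls. With libraries rescaled to the sum over all rows or over rows that are not mt-, 0 rRNA genes were called with LPS in place of 2, and 0 in place of 2 with oxLDL+LPS against oxLDL, while protein-coding calls went from 1 to 3 and from 0 to 5, all lower. mt-Rnr1 in oxLDL+LPS against oxLDL reversed, to -0.0724 and -0.0776 under these rescalings. With no filter on low values 0 protein-coding genes were called with LPS, with no variance trend 2, and without both libraries of replicate number 1 0. Leaving out single libraries gave 0 to 1 (0 without control replicate 1 or 2 or LPS replicate 1). rRNA calls with oxLDL+LPS against oxLDL were 1 with no filter, with no variance trend and without number 1, and 1 to 2 over single libraries left out. Protein-coding calls there were 0 to 3 over single libraries left out, with 3 without oxLDL+LPS replicate 2. With the replicate block 1 rRNA gene was called between oxLDL+LPS and LPS in place of 0, and no other of these counts moved. Log2 ratios of the mitochondrial share paired by replicate number were -0.02, -0.18, -0.21 and -0.37, close to the unpaired ones.

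Of the alternative values of single rows, 1644 moved by less than the spread between replicates, 67 moved further and 2, the values of mt-Rnr1 above, were called values that reversed. Of 1623 alternative values of rows that were not called, 189 changed sign, among them 36 of 204 under rescaling. All 32 values of the rRNA to protein-coding ratio stayed within that spread. Rows below 10 normalised reads were limited by depth, and with 3 libraries in a group an exact permutation test cannot give a two-sided p under 0.1. When 1 library was left out, the smaller group was assumed to vary like the others.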
